A study of Mus musculus with 8 samples.

Results

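The subject of this report is the gamma-delta T-cell receptor (TCR) clonotypes recovered from RNA sequencing of trafficked maternal cells and recipient cells of mouse pups. A clonotype was taken as gamma or delta when its best J segment in the deposited MiXCR tables was a TRGJ or a TRDJ segment, and 732 of 14428 clonotypes met this rule (338 gamma with 3758 reads and 394 delta with 4719 reads). CD11c-DTR dams were mated with BALB/c males, and their F1 pups were studied. In these C57BL/6 (B6) dams the CD11c promoter drives the receptor for diphtheria toxin (DT), so that DT transiently removes dendritic cells (DC). Dams received DT (5 ng/g) or saline on embryonic day 13, and fetuses received 5000000 bone marrow mononuclear cells into the liver on embryonic day 14, from B6 mice in maternal donor IUT (mIUT) or from BALB/c mice in paternal donor IUT (pIUT). The groups were uninjected, DC control mIUT, DC control pIUT and DC-depleted pIUT. Only the last had DT by its label, and the uninjected pups came from DT or saline dams in a mixture that was not given. Mononuclear cells were sorted from pups aged 1 week, maternal cells by the B6 marker H2K-b and recipient cells by the BALB/c marker H2K-d. Both origins of a group were sorted from harvests of the same pooled group of pups. F1 cells inherit both haplotypes, and BALB/c donor cells also carry H2K-d, so the recipient sort does not by itself set the pIUT donor cells apart. Likewise, F1 recipient cells and B6 donor cells carry H2K-b. The maternal sort therefore does not by itself set recipient cells, or in mIUT the donor cells, apart. Below, "maternal" and "recipient" name the sort. Each origin and group was 1 pooled library, 8 in all, so every comparison is between libraries, and "mIUT" and "pIUT" below mean the DC control libraries.

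The gene table held between 38543457 and 47965130 counts per library, whereas the clonotype tables held between 3749 reads (maternal pIUT) and 348684 reads (maternal uninjected). Receptor reads were therefore far more uneven than sequencing depth. Intervals on shares (exact binomial) and on reads (exact Poisson) are at the 95% level and cover counting error only, because reads without molecular identifiers are not independent molecules and no library had a replicate. In bulk RNA, fewer gamma-delta T cells and less receptor RNA per cell cannot be told apart, and a gamma chain cannot be paired with a delta chain.

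Gamma-delta T cells are the earliest T cells of the mouse thymus, and they leave it in waves that each use a set V segment. Receptors with TRGV5 are typical of the wave that settles in the epidermis, and receptors with TRGV6 of the following wave, which settles in the genital tract, lung, tongue and dermis and tends to make IL-17. Both waves share the same delta chain of TRDV4 and TRDJ2, and their junctions hardly vary because the template-independent polymerase TdT, encoded by Dntt, is scarcely present in the early fetal thymus. TRGV4 and the TRGV1 to TRGV3 group appear later and have more varied junctions, and TRGV7 is typical of intestinal epithelium.

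The recurrent junctions are shown first, because the counts that follow rest on them. The names gamma 1 to 5 and delta 1 to 5 are used here for the 5 productive CDR3 amino acid sequences per chain that were found in the most libraries. Each sequence runs from the conserved cysteine codon to the phenylalanine codon of the J segment. Capitals in the gamma sequences mark bases that V and J could both have supplied, or, in gamma 4, a base that neither supplied, and capitals in the delta sequences mark the bases between V and J.
gamma 1, TRGV6-TRGJ1: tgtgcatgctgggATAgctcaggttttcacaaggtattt
gamma 1, TRGV5-TRGJ1: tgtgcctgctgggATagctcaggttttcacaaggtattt
gamma 2, TRGV4-TRGJ1: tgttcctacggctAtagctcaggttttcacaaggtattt
gamma 3, TRGV1-TRGJ4: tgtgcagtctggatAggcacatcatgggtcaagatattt
gamma 4, TRGV3-TRGJ2: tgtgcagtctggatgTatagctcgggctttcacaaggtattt
delta 1, TRDV4-TRDJ2: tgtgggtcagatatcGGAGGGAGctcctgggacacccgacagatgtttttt
delta 3, TRDV4-TRDJ1: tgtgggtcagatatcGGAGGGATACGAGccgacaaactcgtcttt
delta 4, TRDV5-TRDJ1: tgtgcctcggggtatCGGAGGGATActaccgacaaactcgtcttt

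The 2 main versions of gamma 1 encode the same 13 residues, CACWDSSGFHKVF. In each, the V and J segments abut with shared bases (3 for TRGV6 and 2 for TRGV5) and nothing added. The germline ends in GRCm39 show this directly, read from the cysteine codon of V to its end, or from the start of J.
Trgv6: tgtgcatgctgggata
Trgv5: tgtgcctgctgggatct
Trgv4: tgttcctacggctaaag
Trgj1: atagctcaggttttcacaaggtatttgc
Trdv4: tgtgggtcagatatc
Trdd2: atcggagggatacgag
Trdj2: ctcctgggacacccgacagatgtttttt

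Gamma 2 encodes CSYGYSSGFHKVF from TRGV4 and likewise has no added base, with 1 base shared by V and J. Delta 1 is 51 bases long (17 residues) and is made of 15 bases of Trdv4, 28 bases of Trdj2 and 8 bases between them, of which 7 match Trdd2 and 1 does not. MiXCR assigned no D segment to delta 1 and counted 3 inserted bases in it, so its insertion count in the deposited table is an upper reading. Delta 3, 4 and 5 consist of V, Trdd2 and J alone, with 13, 10 and 8 bases of Trdd2. Trgv6 lies at chr13:19374526-19375099 on the plus strand, upstream of Trgj1 at chr13:19394513-19394572 and Trgc1 at chr13:19398273-19401194. Trdv4 lies at chr14:54312362-54312972, and Trdj2 at chr14:54374236-54374294 (GRCm39, GENCODE annotation).

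Most gamma-delta clonotypes were in recipient cells of pIUT and DC-depleted pIUT pups, as were most TCR clonotypes of any chain. Of all 8512 TCR clonotypes, recipient pIUT held 4895 and recipient DC-depleted pIUT 1788. The recipient pIUT library held 135 gamma and 196 delta clonotypes (3348 reads) and the recipient DC-depleted pIUT library 142 gamma and 146 delta (2834 reads). Recipient mIUT held 21 gamma and 23 delta clonotypes (284 reads). Recipient uninjected held 1 gamma and 5 delta clonotypes, but with 1130 reads. These 6 clonotypes carried 400, 364, 293, 61, 11 and 1 reads. Among maternal cells, uninjected held 15 gamma and 11 delta clonotypes (581 reads) and DC-depleted pIUT 18 and 13 (269 reads). Maternal mIUT held 6 gamma clonotypes with 31 reads and no delta clonotype. Maternal pIUT held neither, with 0 of 17 TCR clonotypes and 0 of 1754 TCR reads, which allows a share of up to 17.6% of clonotypes and 0.171% of reads.

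As a share of all TCR clonotypes, gamma-delta clonotypes made up 16.1% (interval 14.4 to 17.9, 288 of 1788) in recipient DC-depleted pIUT and 6.76% (6.07 to 7.50, 331 of 4895) in recipient pIUT. The intervals of this pair of libraries do not overlap. Their gamma-delta clonotype numbers were close, and the libraries differed in beta clonotypes, 1229 in DC-depleted pIUT against 4101 in pIUT. Weighted by reads, the shares were 28.6% and 8.16%. Recipient mIUT lay between them at 10.05% (7.39 to 13.3). Maternal DC-depleted pIUT had 6.60% (4.53 to 9.23) and maternal uninjected 3.08% (2.02 to 4.48), and these intervals do not overlap. Recipient uninjected (16.2%, 6.19 to 32.0, 37 TCR clonotypes) and maternal mIUT (27.3%, 10.7 to 50.2, 22 TCR clonotypes) had too few clonotypes to be placed in this order.

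The 2 most widespread sequences, gamma 1 and delta 1, made up 17 of the 732 clonotype lines but 2659 of the 8477 gamma-delta reads (31.4%). Gamma 1 was found in 6 libraries with 1166 reads, and delta 1 in 6 libraries with 1493 reads. Most lines thus did not carry the invariant junctions of the early waves, and the label of fetal waves describes the most abundant junctions rather than the set. Of 94 productive gamma CDR3 sequences, 17 were found in 2 or more libraries, and of 264 productive delta sequences, 26 were.

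The TRGV6 version of gamma 1 was found in each of the 4 recipient libraries. It had 469 reads (interval 428 to 513) in DC-depleted pIUT, 357 (321 to 396) in pIUT, 25 (16.2 to 36.9) in mIUT and 11 (5.49 to 19.7) in uninjected. It was the largest gamma clonotype of recipient pIUT, DC-depleted pIUT and uninjected. It was not detected in any maternal library, where 0 reads bound its share of productive gamma reads at 1.71% in uninjected and 3.93% in DC-depleted pIUT. Maternal mIUT had only 3 productive gamma reads (bound 70.8%) and maternal pIUT no gamma read. The absence in maternal libraries therefore rests on uninjected and DC-depleted pIUT. The TRGV6 version made up all 11 productive gamma reads of recipient uninjected (71.5 to 100%). These came from 1 clonotype, while that library had 0 counts of Trgv6 and of every Trgc gene. Whether these reads passed from another library was not tested. The TRGV6 version had 46.0% (42.9 to 49.1) of productive gamma reads in recipient DC-depleted pIUT and 43.5% (40.1 to 47.0) in recipient pIUT. These neighbouring values differed by less than their counting intervals. Recipient mIUT was lower, at 27.8% (18.9 to 38.2).

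The TRGV5 version was found in maternal and recipient libraries. It had 27 reads in maternal uninjected and 24 in maternal DC-depleted pIUT, or 12.6% (8.48 to 17.8) and 26.1% (17.5 to 36.3) of productive gamma reads. In recipient cells it had 175 reads in DC-depleted pIUT, 62 in pIUT and 16 in mIUT, and 0 in uninjected. Its share was 17.2% (14.9 to 19.6) in recipient DC-depleted pIUT and 7.55% (5.84 to 9.58) in recipient pIUT, without overlap of the intervals. The TRGV5 version thus differed between these 2 libraries, whereas the share of the TRGV6 version lay within counting error.

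Gamma 2, the TRGV4 junction without insertion, was the largest gamma clonotype of maternal uninjected cells, with 66 reads and 30.8% (24.7 to 37.5) of productive gamma reads. It had 6 reads in maternal DC-depleted pIUT and 11, 73 and 100 reads in recipient mIUT, pIUT and DC-depleted pIUT. The last 3 shares, 12.2%, 8.89% and 9.81%, have overlapping intervals. Gamma 3, which joins TRGV1 to TRGJ4, was found in recipient mIUT, pIUT and DC-depleted pIUT only, with 9, 14 and 17 reads. Gamma 4 was found in recipient pIUT (16 reads) and DC-depleted pIUT (22 reads), and gamma 5, which has 1 added base like gamma 4, in maternal uninjected (18 reads) and recipient pIUT (14 reads).

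Delta 1 was the most widespread delta junction. Recipient DC-depleted pIUT had 482 reads (440 to 527), recipient pIUT 464 (423 to 508) and recipient uninjected 400 (362 to 441). Maternal uninjected had 121 (100 to 145), maternal DC-depleted pIUT 14 (7.65 to 23.5) and recipient mIUT 12 (6.20 to 21.0). It was the largest delta clonotype in 4 of the 6 libraries with any delta clonotype. Its share of productive delta reads was 53.1% (49.4 to 56.7) in recipient uninjected, 41.6% (38.7 to 44.5) in recipient DC-depleted pIUT, 38.7% (33.2 to 44.3) in maternal uninjected, 28.7% (26.5 to 31.0) in recipient pIUT, 20.9% (11.9 to 32.6) in maternal DC-depleted pIUT and 9.84% (5.19 to 16.6) in recipient mIUT. In this order, the second and the third, the fourth and the fifth, and the fifth and the last have overlapping intervals. Delta 1 was thus found in maternal libraries at up to 121 reads, although the TRGV6 version of gamma 1 was at 0 there and the TRGV5 version was not.

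**Figure D1:**
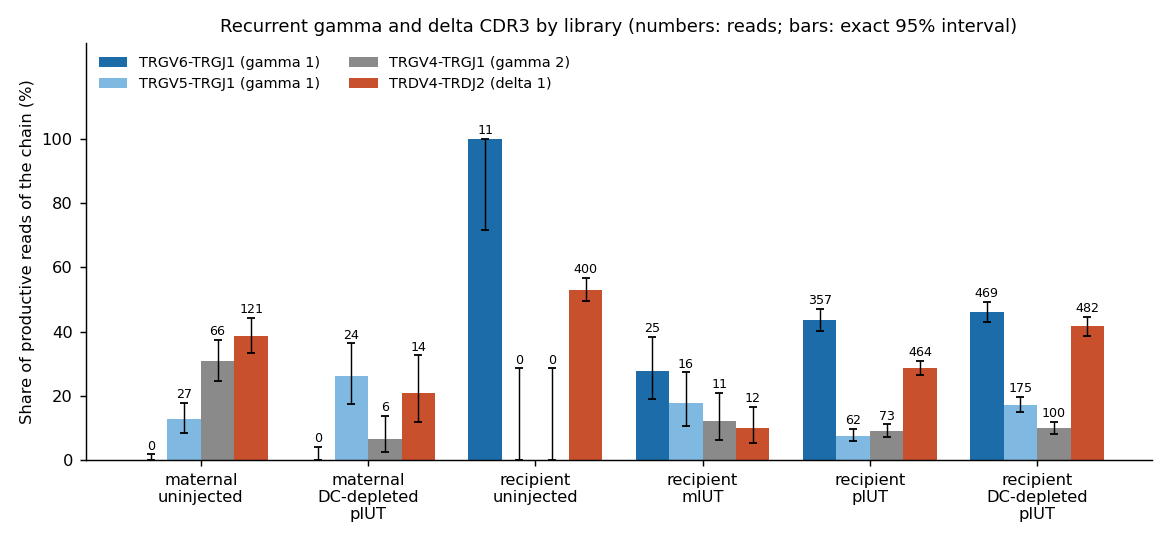
Share of productive gamma or delta reads (percent, y axis) taken by 4 recurrent CDR3 in 6 libraries (x axis), with exact 95% binomial intervals as bars and the reads above. The TRGV6 version of gamma 1 had 0 reads in both maternal libraries and 11 to 469 in the recipient libraries, whereas delta 1 was found in all 6 libraries. The 11 reads are those of recipient uninjected, which had 0 counts of every Trgc gene.

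Each of the other recurrent delta junctions had fewer reads. Delta 2, with TRAV15/DV6 segments and all 16 bases of Trdd2, was found in maternal DC-depleted pIUT (6 reads) and in recipient mIUT (3), pIUT (14) and DC-depleted pIUT (24). Delta 3, from TRDV4 and TRDJ1, had 22 reads in maternal uninjected, 8 in recipient pIUT and 12 in recipient DC-depleted pIUT. Delta 4 had 8, 22 and 2 reads and delta 5 had 9, 10 and 6 reads in recipient mIUT, pIUT and DC-depleted pIUT. In the 2 libraries where delta 1 was not the largest delta clonotype, another junction with Trdd2 bases was, unproductive in maternal DC-depleted pIUT (22 of 115 delta reads) and productive in recipient mIUT (19 of 139).
maternal DC-depleted pIUT, TRAV15/DV6-TRDJ1: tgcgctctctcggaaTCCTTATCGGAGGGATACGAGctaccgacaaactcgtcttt
recipient mIUT, TRDV4-TRDJ1: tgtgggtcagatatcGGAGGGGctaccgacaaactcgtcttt
Around delta 1 there were few near copies: of 17 TRDV4-TRDJ2 lines, 6 were identical to it (1492 reads), 2 lay within 2 base changes (3 reads) and 9 lay further away (52 reads). Around gamma 2 there were many: of 88 TRGV4-TRGJ1 lines, 5 were identical (212 reads), 25 lay within 2 base changes (204 reads) and 58 further away (361 reads).

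The named V segment depended on the reference. By the best hits as deposited, TRGV3 was the most frequent gamma V segment, with 165 of 338 clonotypes, followed by TRGV4 (91), TRGV1 (29), TRGV5 (24), TRGV7 (16) and TRGV6 (13). TRGV2 was absent from all deposited V hits. The assembled reads were therefore compared with the GRCm39 segments Trgv1 to Trgv7, an alternative chosen after the values were seen. Of the 194 clonotypes called TRGV1 or TRGV3, 122 were nearest to Trgv2 (103 called TRGV3 and 19 called TRGV1). Of these, 114 matched Trgv2 without a difference, over a median of 148.5 bases, and their median distance was 5 base changes to Trgv1 and 8 to Trgv3. In 121 of the 122 the J segment was TRGJ2. Trgv2 (chr13:19520743-19521337) and Trgj2 (chr13:19495415-19495474) lie on the minus strand, as neighbours of Trgc2. Another 61 clonotypes could not be separated among Trgv1, Trgv2 and Trgv3, and the 54 of these called TRGV3 with TRGJ2 had a median of 10 bases to compare. Trgv1 alone was nearest for 7 clonotypes, and Trgv3 alone for 2. Of the 144 calls of TRGV4 to TRGV7, 141 were the same by both ways. Gamma 4, called TRGV1 or TRGV3 in the tables, contains 15 bases of the Trgv2 end.

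Taken by the nearest GRCm39 segment, the shares of most gamma V segments had overlapping intervals in the 2 largest gamma libraries. TRGV2 had 36.3% (28.2 to 45.01) of clonotypes in recipient pIUT and 34.5% (26.7 to 42.9) in recipient DC-depleted pIUT, and TRGV4 had 31.9% (24.1 to 40.4) and 25.4% (18.4 to 33.3). TRGV5 had 5.19% and 7.04%, and TRGV6 3.70% and 2.82%. TRGV7 was found in 1 of 135 clonotypes in recipient pIUT (0.741%, 0.0188 to 4.06) and in 12 of 142 in recipient DC-depleted pIUT (8.45%, 4.44 to 14.3), the only gamma segment whose intervals did not overlap between these libraries. Of those 12, 11 were productive. TRGV7 also had 2 of 18 clonotypes in maternal DC-depleted pIUT, 1 of 21 in recipient mIUT and 0 of 15 in maternal uninjected.

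Counted by reads, with the nearest GRCm39 segment, TRGV6 took a much larger share. It had 24.6% of gamma reads in recipient pIUT and 30.1% in recipient DC-depleted pIUT from 5 and 4 clonotypes. TRGV2 had 35.6% and 31.9%, and TRGV4 25.5% and 14.4%. In maternal cells TRGV6 had 1 clonotype in uninjected (33 reads, productive, not gamma 1) and 1 in DC-depleted pIUT (5 reads, not productive). TRGV4 had 36.6% and 35.1% of gamma reads in these maternal libraries.

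**Figure D2:**
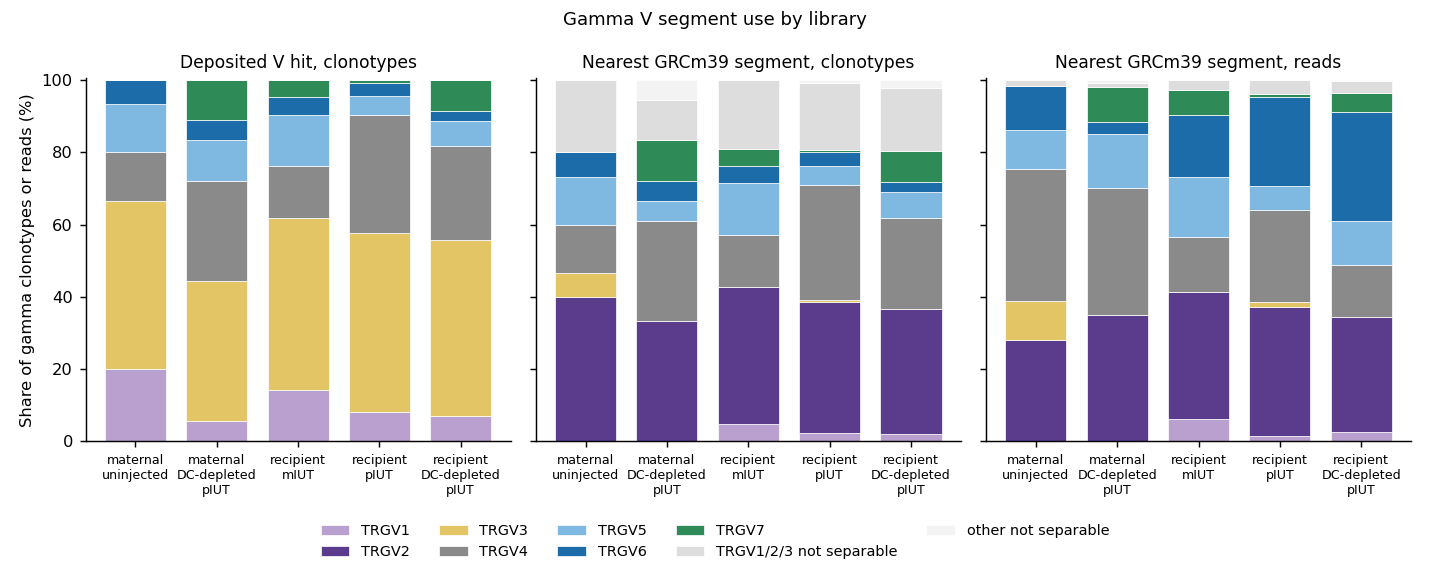
Gamma V segment use in 5 libraries (x axis) as a percentage of gamma clonotypes or reads (y axis), by the deposited V hit (left) and by the nearest GRCm39 segment (middle, right). Most of what the deposited hits named TRGV3 lies nearest to TRGV2, and TRGV6 takes a larger share of reads than of clonotypes in recipient pIUT and DC-depleted pIUT.

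J segments followed the V segments of the same gene cluster. TRGJ2 had 178 of 338 gamma clonotypes and TRGJ1 143, with 14 for TRGJ4 and 3 for TRGJ3. All TRGV5, TRGV6 and TRGV7 clonotypes and 88 of 91 TRGV4 clonotypes were joined to TRGJ1. The share of TRGJ1 was 41.5% (33.1 to 50.3) in recipient pIUT and 44.4% (36.0 to 52.9) in recipient DC-depleted pIUT. TRGJ3 appeared in maternal uninjected (1 clonotype, 29 reads) and recipient pIUT (2 clonotypes, 27 reads).

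Delta clonotypes used 38 V segments, of which 16 had 5 or more clonotypes. By family, TRAV15/DV6 led with 127 of 394 clonotypes, followed by TRDV4 (55), TRDV2 (52), TRAV13/DV7 (48), TRDV5 (42), TRAV14/DV8 (24), TRDV1 (14), TRAV16/DV11 (10) and TRAV21/DV12 (5), with 17 in other TRAV segments. Several TRAV/DV segments are near-identical copies, so members of a family were not separated. TRAV15/DV6 had 34.7% (28.1 to 41.8) of delta clonotypes in recipient pIUT and 35.6% (27.9 to 44.0) in recipient DC-depleted pIUT, 3 of 23 in recipient mIUT, 4 of 13 in maternal DC-depleted pIUT and 0 of 11 in maternal uninjected. TRDV4 had 9.69% (5.94 to 14.7) in recipient pIUT and 18.5% (12.6 to 25.8) in recipient DC-depleted pIUT, with overlapping intervals. TRDV1 had 11 of 196 clonotypes in recipient pIUT and 1 of 146 in recipient DC-depleted pIUT (5.61%, 2.83 to 9.82, and 0.685%, 0.0173 to 3.76), with intervals that overlap.

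By reads, TRDV4 was first in recipient DC-depleted pIUT (55.8%), recipient uninjected (35.8%), maternal uninjected (45.7%) and recipient pIUT (31.7%). In recipient mIUT, TRDV5 (27.3%) lay above TRDV4 (23.7%), and in maternal DC-depleted pIUT, TRAV15/DV6 (36.5%) lay above TRDV4 (12.2%). In recipient uninjected, the TRDV4 reads were nearly all delta 1, and TRAV21/DV12 (364 reads, 1 unproductive clonotype) and TRAV13/DV7 (354 reads, 2 clonotypes) made up the rest.

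TRDJ1 was used by 374 of 394 delta clonotypes and TRDJ2 by 20, of which 17 had TRDV4. TRDJ2 nevertheless had 33.2% of delta reads. A Trdd2 hit was given for 356 clonotypes (90.4%), a Trdd1 hit for 4, all in recipient pIUT, and no D segment for 34.

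**Figure D3:**
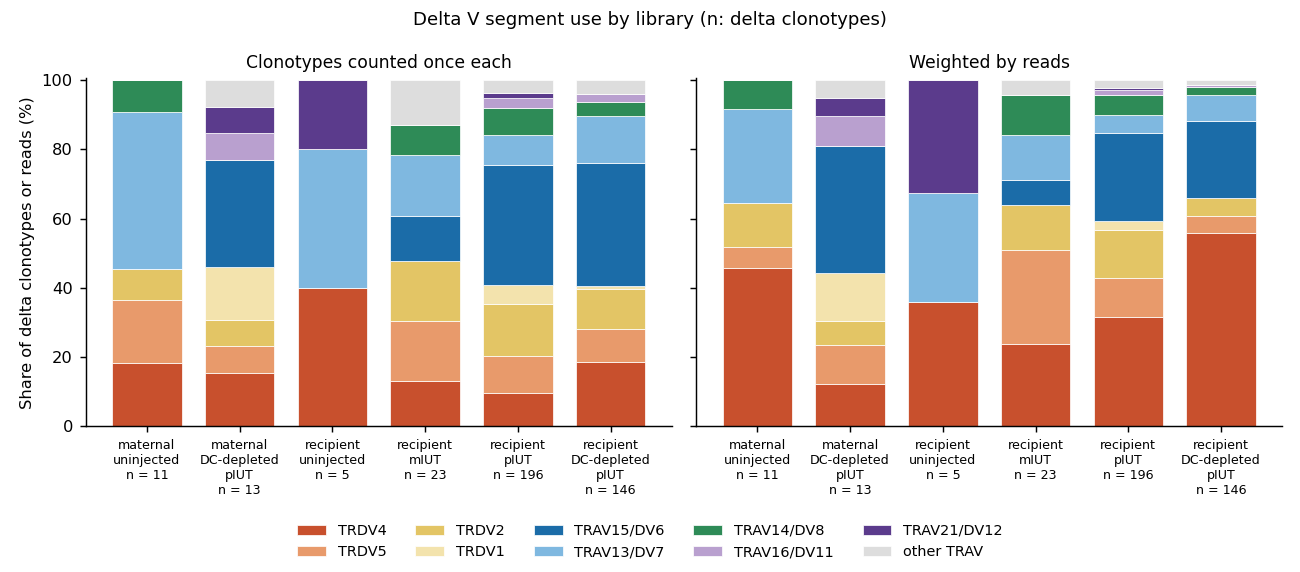
Delta V segment use by family in 6 libraries (x axis), as a percentage of delta clonotypes (left) or reads (right), with the number of delta clonotypes under each library. TRDV4 has 9.69% of clonotypes and 31.7% of reads in recipient pIUT, and 18.5% and 55.8% in recipient DC-depleted pIUT.

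Over all libraries, 147 of 338 gamma clonotypes (43.5%) were productive, that is, in frame without a stop codon, compared with 328 of 394 delta clonotypes (83.2%), 92.0% of beta and 81.2% of alpha clonotypes. In recipient pIUT the productive share was 37.0% (28.9 to 45.8) for gamma and 77.0% (70.5 to 82.7) for delta, and in recipient DC-depleted pIUT 43.0% (34.7 to 51.5) and 91.8% (86.1 to 95.7), so that the delta intervals of the 2 libraries did not overlap. These 2 libraries carry the pooled gamma share, since 11 of 15 gamma clonotypes were productive in maternal uninjected, 10 of 18 in maternal DC-depleted pIUT, 12 of 21 in recipient mIUT, 1 of 1 in recipient uninjected and 2 of 6 in maternal mIUT. By segment, 14 of 16 TRGV7, 8 of 13 TRGV6 and 13 of 24 TRGV5 clonotypes were productive, against 40 of 91 for TRGV4 and 43 of 122 for those nearest to TRGV2. Unproductive gamma junctions also recurred. The largest gamma clonotypes of maternal DC-depleted pIUT (23 reads, equal with the TRGV5 version of gamma 1) and of recipient mIUT (25 reads, equal with the TRGV6 version) were unproductive TRGJ2 joins found in 4 and 3 libraries, and in both V and J abut without an added base.
maternal DC-depleted pIUT, TRGJ2 join of 40 bases: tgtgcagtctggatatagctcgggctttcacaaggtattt
recipient mIUT, TRGJ2 join of 38 bases: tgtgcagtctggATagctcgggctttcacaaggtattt

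The 6 gamma clonotypes of maternal mIUT were variants of a single junction. All joined TRGV3 or TRGV1 (by the deposited hit) to TRGJ2, had a run of 10 to 12 G bases in the CDR3 (in capitals below) and lay within 3 base changes of the largest, shown here, which had 12 of the 31 reads.
maternal mIUT, largest gamma clonotype: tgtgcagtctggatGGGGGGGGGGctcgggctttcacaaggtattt
Runs of 8 or more G bases were found in 1 other gamma clonotype, in maternal uninjected, and in no delta clonotype. The gene table shows the same library with 262 counts of Trgc2, 112 of Trgv2 and 0 for each other gamma or delta receptor gene of the list.

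Junctions without inserted bases were frequent in gamma and delta clonotypes, and their share varied between libraries. Among gamma clonotypes, 71.4% (47.8 to 88.7) had no inserted base in recipient mIUT, 49.3% (40.8 to 57.8) in recipient DC-depleted pIUT, 37.8% (29.6 to 46.5) in recipient pIUT, 9 of 18 (26.02 to 74.0%) in maternal DC-depleted pIUT and 26.7% (7.79 to 55.1) in maternal uninjected. Among delta clonotypes the shares were 78.3% (56.3 to 92.5), 66.4% (58.2 to 74.0), 52.6% (45.3 to 59.7), 46.2% (19.2 to 74.9) and 18.2% (2.28 to 51.8) in the same libraries. Beta clonotypes followed the same order of libraries for the recipient cells, with 59.6% (54.2 to 64.9), 49.5% (46.6 to 52.3) and 38.6% (37.1 to 40.1), and had 41.2% (36.5 to 46.1) in maternal DC-depleted pIUT and 11.99% (9.35 to 15.05) in maternal uninjected. In recipient pIUT and DC-depleted pIUT the gamma share lay within the counting interval of the beta share, whereas the delta share lay above the beta share with no overlap of intervals. Where no D segment was named, all bases between V and J counted as inserted. How often beta clonotypes had a named D segment was not examined, and its part in this difference was not tested. Gamma chains, like alpha chains, join V to J without a D segment, so gamma and beta shares do not compare like junctions. The alpha shares in recipient pIUT and DC-depleted pIUT were 40.2% (35.7 to 44.8) and 63.1% (57.1 to 68.9), with intervals that overlap those of gamma. Among these 5 libraries, maternal uninjected had the lowest share of such junctions in beta, and their few gamma and delta clonotypes had intervals too wide to place them.

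**Figure D4:**
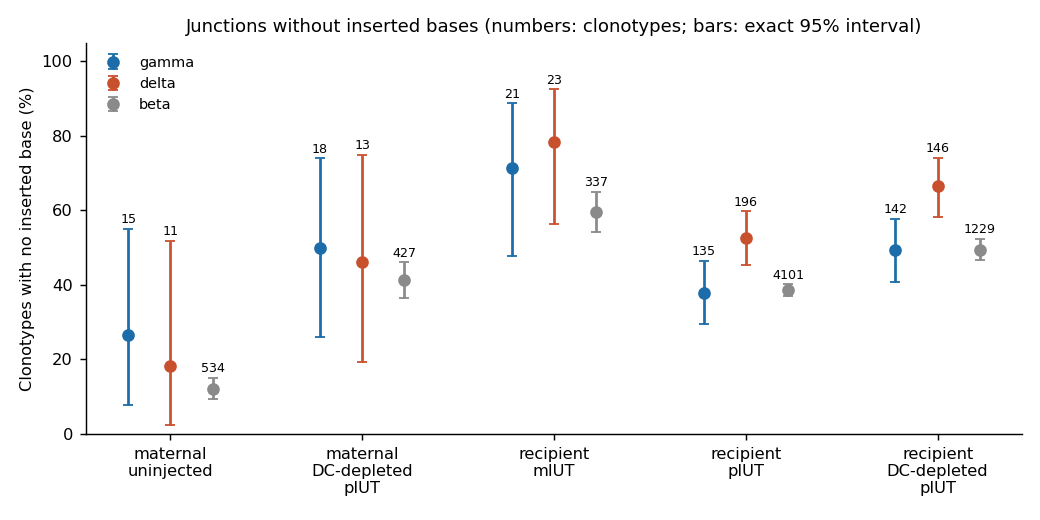
Percentage of clonotypes with no inserted base (y axis) for gamma, delta and beta chains in 5 libraries (x axis), with exact 95% binomial intervals and the number of clonotypes above each point. In recipient pIUT and DC-depleted pIUT the delta points (52.6% and 66.4%) lie above the beta points (38.6% and 49.5%).

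By segment in the recipient libraries together, no inserted base was found in 12 of 14 TRGV7, 17 of 20 TRGV5, 8 of 11 TRGV6 and 37 of 84 TRGV4 clonotypes, and in 49 of 146 called TRGV3. The intervals of TRGV5 (62.1 to 96.8%) and TRGV7 (57.2 to 98.2%) lay above those of TRGV4 (33.2 to 55.3%) and TRGV3 (25.97 to 41.8%). The intervals of TRGV6 and of clonotypes called TRGV1 (14 of 24 without an inserted base) overlapped those of TRGV4 and TRGV3. Among delta segments, TRDV4 had 38 of 51 (74.5%, 60.4 to 85.7) and TRAV15/DV6 68 of 123 (55.3%, 46.1 to 64.3), with overlapping intervals. The median CDR3 was 41.0 bases for gamma and 48.0 for delta in recipient pIUT, 40.5 and 48.0 in recipient DC-depleted pIUT, and 42 and 51 in maternal uninjected. In recipient pIUT, delta lengths reached 236 bases.

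Identical gamma-delta junctions were found in more than 1 library. By identical CDR3 bases and J segment, recipient pIUT (301 sequences) and recipient DC-depleted pIUT (263) had 46 gamma-delta sequences in common, 15.3% and 17.5% of each, against 72 beta sequences, 1.79% and 5.93% of each. Maternal DC-depleted pIUT shared 9 of its 28 sequences with each of these recipient libraries (32.1%), and maternal uninjected 4 and 3 of its 21. Of delta sequences found in 2 or more libraries, 24 of 27 (88.9%, 70.8 to 97.6) had no inserted base, compared with 162 of 313 (51.8%, 46.1 to 57.4) of those found in 1 library. For gamma the numbers were 21 of 30 (70.0%, 50.6 to 85.3) and 76 of 211 (36.0%, 29.5 to 42.9). Delta 1, found in 6 libraries and counted by MiXCR with 3 inserted bases, was among the remaining 3 delta sequences. In recipient uninjected, 8 of 19 beta sequences (42.1%) were also found in recipient pIUT, with 1 to 334 reads in the former and 4 to 28 in the latter, a larger share than in the other libraries (0 to 7.69%). Its single gamma clonotype had 11 reads there and 357 in recipient pIUT, while its gene table held 0 counts of every Trgc gene. Whether reads passed between these libraries was not tested.

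The constant genes were likewise highest in recipient pIUT and DC-depleted pIUT. Trgc1, the constant gene used with TRGJ1, had 10.1 CPM (counts scaled to the TMM-adjusted library size) in maternal uninjected, 15.4 in maternal DC-depleted pIUT, 8.40 in recipient mIUT, 136 in recipient pIUT and 142 in recipient DC-depleted pIUT, and 0 counts in the other 3 libraries. Trgc2, used with TRGJ2, had 4.91, 6.77, 0 and 3.63 CPM in maternal uninjected, mIUT, pIUT and DC-depleted pIUT, and 0, 5.41, 61.3 and 60.03 in the recipient libraries in the same order. Trdc, the delta constant gene, had 21.8, 0, 0 and 11.8 CPM in the maternal libraries and 37.3, 11.5, 152 and 83.0 in the recipient libraries. Recipient uninjected thus had 1804 counts of Trdc with 0 of Trgc1, Trgc2, Trgc3 and Trgc4.

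Trgv6 had 2.90 and 3.05 CPM in recipient pIUT and DC-depleted pIUT (131 and 167 counts), 0 in recipient uninjected and 6 counts in recipient mIUT. In maternal cells it had 16 counts in uninjected and 4 in DC-depleted pIUT. Trdv4 had 184, 20, 418 and 504 counts in recipient uninjected, mIUT, pIUT and DC-depleted pIUT, and 127, 0, 0 and 7 in the maternal libraries. Trgv2, absent from the deposited V hits, had 38, 112, 0 and 22 counts in the maternal libraries and 0, 21, 225 and 257 in the recipient libraries. Trgv3 had 9 counts in maternal uninjected and 7 in recipient pIUT, and 0 elsewhere, although 165 clonotypes were called TRGV3.

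Between the recipient libraries of DC-depleted pIUT and pIUT, the log2 fold changes of Trgc1, Trgc2 and Trgc4 were 0.06, -0.03 and 0.22, and that of Trdc was -0.87, a 1.83-fold lower level. A gene was counted as past the fold at a log2 change of 1 or more, with no test. Of 16 receptor genes above 3 counts, 2 were higher and 4 lower, with a median of -0.06, and of all 18999 genes 27.4% were higher and 15.5% lower, with a median of 0.12. The 2 higher were Trgv5 (21 and 80 counts in pIUT and DC-depleted pIUT) and Trgv7 (6 and 38 counts). Between the same libraries, the intervals of the TRGV5 version of gamma 1 (reads) and of TRGV7 (clonotypes) did not overlap. Clonotypes and gene counts come from the same sequencing of these libraries, so they are not independent measures. The 4 lower were Trdv1 (75 and 12 counts), Trdv2-2 (130 and 46), Trdv5 (107 and 37) and Trgv3 (7 and 0). Trdv5 overlaps the end of Trdc on the other strand, so its reads are uncertain.

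Against recipient uninjected, recipient pIUT had 15 of 16 receptor genes higher and 0 lower, where 54.6% of all genes were higher and 21.0% lower and the median of all genes was 1.64 on the log2 scale. The 16th, Trdv2-2, had 84 counts in uninjected and 130 in pIUT. Trgc1 and Trgc2 were at least 2198-fold and 988-fold higher by the limit of 3 counts in uninjected, and Trdc was 4.08-fold higher (log2 2.03, close to the median of all genes). The limit for Trgc1 stands beside 11 MiXCR reads of a TRGV6-TRGJ1 clonotype in recipient uninjected, so that bound is uncertain. Recipient mIUT had 9 of 12 receptor genes higher and 3 lower against uninjected, where 53.5% of all genes were higher and 26.5% lower and the median was 1.48. The 3 lower were Trdc (3.25-fold), Trdv4 and Trdv2-2. In maternal cells, mIUT against uninjected had 1 of 13 receptor genes higher (Trgv2) and 11 lower (all genes 27.1% and 46.1%), pIUT against uninjected had 0 higher and 13 lower (all genes 34.3% and 34.3%), and DC-depleted pIUT against pIUT had 13 higher and 0 lower (all genes 38.5% and 37.6%). The maternal comparisons with pIUT rest on a library in which every receptor gene was at 0. Since more than 40% of all genes passed the fold in each of the 6 comparisons, a passed fold by itself sets no gene apart.

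Dntt, which encodes TdT, had 4527 counts (100 CPM) in recipient pIUT and 453 (8.26 CPM) in recipient DC-depleted pIUT, a log2 change of -3.60. It had 100 counts (3.49 CPM) in recipient mIUT and 11 in recipient uninjected, and in maternal cells 254 in uninjected, 276 in DC-depleted pIUT and 0 in the other 2. The recombinase genes Rag1 and Rag2 were also lower, with 2166 and 431 counts and 1328 and 547 counts in these libraries, so that 3 of 3 recombination genes were lower in recipient DC-depleted pIUT than in pIUT, a comparison in which 15.5% of all genes were lower and 27.4% higher. Any relation between the level of Dntt and the share of junctions without inserted bases was not tested. In recipient mIUT, DC-depleted pIUT and pIUT, with 3.49, 8.26 and 100 CPM of Dntt, the gamma, delta and beta shares fell in that order. The alpha shares there were 50.9% (37.3 to 64.4), 63.1% (57.1 to 68.9) and 40.2% (35.7 to 44.8), and the first interval overlaps both others. Recipient uninjected, with 0.227 CPM, had 5 of 22 beta and 2 of 9 alpha junctions without inserted bases. Maternal uninjected and DC-depleted pIUT, with 6.53 and 8.36 CPM, had beta shares of 11.99% and 41.2%.

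Of the genes typical of gamma-delta T cells that make IL-17, Il17a itself had 190 counts in recipient pIUT and 277 in recipient DC-depleted pIUT (log2 0.26). Cd163l1 (Scart1), a scavenger receptor of gamma-delta T cells, had 48.7 and 75.5 CPM in these libraries, 3.17 in recipient mIUT and 7.43 and 2.48 in maternal uninjected and DC-depleted pIUT, and 0 in the other libraries. Il17a was above 3 counts in 1 further library, maternal DC-depleted pIUT (28 counts). Blk was highest in maternal uninjected (186 CPM), and it is also a B-cell kinase. The 4 B-cell genes summed to 6617 CPM in that library.

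Of the interferon-gamma programme, Gzma, a granzyme also made by NK cells, was the highest, at 564 and 649 CPM in recipient pIUT and DC-depleted pIUT, and 2 of 6 genes were higher and 1 lower in DC-depleted pIUT. In this comparison 27.4% of all genes were higher and 15.5% lower. Of the lineage factors, 0 of 10 were higher and 6 lower, led in level by Tcf7, a transcription factor of all T cells, which had 706 and 120 CPM (log2 -2.55). For the lineage and interferon-gamma lists the median log2 changes were -1.08 and 0.27, against 0.12 for all genes.

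**Figure D5:**
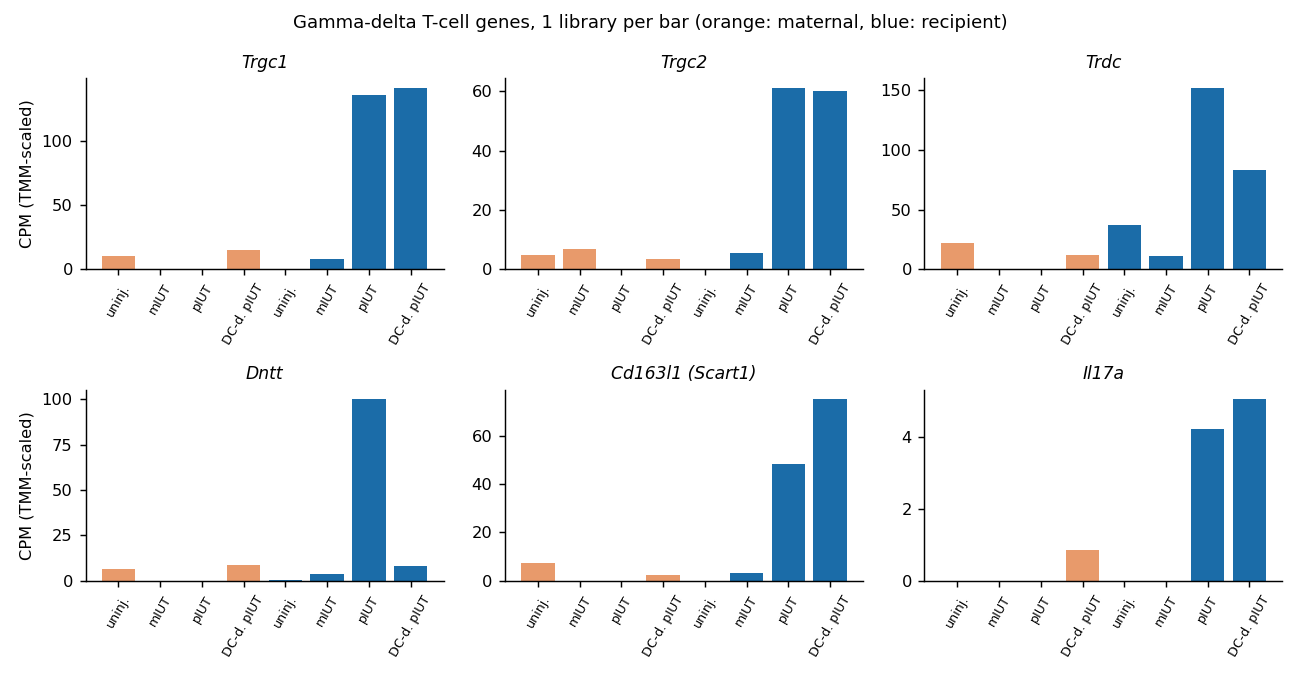
CPM (y axis, TMM-scaled, a separate scale in each panel) of 6 genes in the 8 libraries, 1 library per bar, with maternal libraries in orange and recipient libraries in blue. In recipient pIUT and DC-depleted pIUT, Trgc1 is at 136 and 142 CPM and Dntt at 100 and 8.26 CPM.

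Markers of other cells also differed between the libraries. The 6 alpha-beta T-cell genes summed to 3198 CPM in recipient pIUT, 729 in recipient DC-depleted pIUT, 550 in recipient uninjected, 336 in recipient mIUT and 117 to 1454 in maternal cells, with Cd4 at 0 in maternal pIUT and DC-depleted pIUT. The 4 genes of the CD3 complex, which alpha-beta and gamma-delta T cells share, summed to 1441 and 377 CPM in recipient pIUT and DC-depleted pIUT. The 4 NK-cell genes summed to 95.5 and 132 CPM there, 312 in maternal uninjected and at most 36.9 in the other libraries, with Ncr1 at 0 in maternal mIUT, pIUT and DC-depleted pIUT and in recipient uninjected. The 5 genes of innate lymphoid cells, which can also make IL-17, summed to 60.8 and 43.5 CPM in recipient pIUT and DC-depleted pIUT and to 114 in maternal uninjected. The 4 myeloid genes summed to 11125 and 15752 CPM in recipient pIUT and DC-depleted pIUT, and among them Mpo, of granulocyte precursors, was at 416 and 10458 CPM. The 4 erythroid genes summed to 83628 CPM in recipient uninjected, 134 in recipient mIUT, 27423 in recipient pIUT and 17483 in recipient DC-depleted pIUT. Their part in the levels of the receptor, IL-17 and interferon-gamma genes was not tested.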

How the data were processed

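RNA of pooled, sorted mononuclear cells was measured in 8 libraries, with groups taken from the labels. The authors deposited MiXCR clonotype tables whose clone counts are reads per clonotype (random-fragment RNA settings, mouse reference, no molecular identifiers, version not given in the sources used here). The authors also deposited estimated counts per gene for GRCm39, fractional as salmon writes them, although the methods name featureCounts. These were rounded, and 25066 of 52784 genes had a count. All 8 columns were used and 0 left out. The chain was read from the best J hit. Inserted bases were taken from MiXCR's reference points as bases outside V, D and J, or all bases between V and J where no D segment was named. A clonotype was productive when its CDR3 was in frame with no stop. Gamma V segments were also matched by edit distance (edlib 1.3.9.post1) to GRCm39, using up to 150 bases that end 10 bases into the CDR3. TMM factors and log2 fold changes came from edgeR 4.0.16 (R 4.3.3), with a dispersion of 0.4 as in the study's methods and a prior count of 0.125. DESeq2 1.42.0 gave alternative size factors. A comparison used genes with more than 3 counts in either library, and a fold against 0 counts is a bound at 3 counts per library. Of the gene identifiers, 97.99% had a symbol in the GENCODE annotation of GRCm39 used here. Cd163l1 and 5830411N06Rik were matched through RefSeq synonyms. With 1 library per group no test was made. Scripts were tested on simulated data. Intervals came from scipy 1.17.1 (Python 3.11.15), and figures from matplotlib 3.10.9.

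The text names, in each library and chain, the largest clonotype, and the 5 productive CDR3 per chain in the most libraries. Genes named are the receptor constant genes, Trgv6, Trdv4, Dntt and the highest of each list. The other genes named were chosen after their values were seen. The members and lists were chosen with earlier results of these data known. Alternatives were clone counts of at least 2, productive clonotypes, merging by amino acid sequence, the chain by V hit, weighting by reads, unambiguous V hits, other denominators, 1 substitution, other scalings, a prior count of 2 and a minimum of 10 counts. A member of the gene lists is not reported here.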

Additional observations from a re-analysis of the deposited data

Results flagged for a closer look

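Some receptor genes and the recombination gene Dntt lay past the fold in opposite directions in maternal and recipient cells, with 1 library per group, so the difference was not tested. For pIUT against uninjected, the recipient log2 fold change or bound was 11.10 for Trgc1, 9.95 for Trgc2, 5.17 for Trgc3, 5.55 for Trgv6, 8.77 for Dntt, 2.03 for Trdc and 1.28 for Trdv4. The maternal bounds were -7.42, -6.37, -3.38, -2.79, -6.78, -8.52 and -5.78, all against a maternal pIUT library with 0 counts. For mIUT against uninjected, the recipient values were 7.08 for Trgc1, 1.75 for Trgv6 (0 and 6 counts) and 3.92 for Dntt, and the maternal bounds were -7.03, -2.41 and -6.40. For DC-depleted pIUT against pIUT, Dntt was at -3.60 in recipient cells and at a bound of 7.14 in maternal cells (0 and 276 counts).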

How the results depend on the processing

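No paired analysis was possible because each comparison of groups within an origin was of 1 pooled library with another, and no replicate could be left out. Maternal and recipient libraries form 4 pairs by group, over which origin was not tested. Of 134 alternative values of the main results, 106 stayed within the counting interval, 1 SD (lengths) or 1.5 times (counts) of the reported value and 28 did not. A change of sign was possible only for the log2 fold changes of Trgc1 and Trdc, and none occurred. Counting productive clonotypes alone left 147 gamma clonotypes, and a chain set by the V hit gave 203 delta clonotypes. TRAV/DV names then count as alpha, and TRDV names count as delta whatever the J segment. The gamma-delta share became 8.16% (reads) and 4.69% (productive) in recipient pIUT, and 28.6% and 12.1% in recipient DC-depleted pIUT. Weighted by reads, the shares in these 2 libraries were 26.1% and 19.2% for TRGV3, 24.6% and 30.1% for TRGV6, 25.4% and 22.4% for TRAV15/DV6, and 31.7% and 55.8% for TRDV4, and TRGV4 fell to 14.4% in DC-depleted pIUT. Among productive clonotypes TRGV3 had 37.7% in DC-depleted pIUT. With the nearest GRCm39 segment, chosen after seeing the data, TRGV3 had 0.741% and 0%. With unambiguous V hits, TRAV15/DV6 had 25.6% in DC-depleted pIUT. Over all reads of the chain, gamma 1 had 27.7% and 39.3%, and delta 1 had 25.3% in pIUT. With at least 10 counts, 8 receptor genes were higher in maternal DC-depleted pIUT than in pIUT. Under scaling by library size, Trdc was at -2.25 (recipient mIUT) and 2.19 (recipient pIUT) against uninjected, and at -0.64 in DC-depleted pIUT against pIUT, where Trgc1 was at 0.29. Under DESeq2 size factors Trdc was at 1.87 in recipient pIUT. Few clonotypes widen the intervals most in the maternal libraries and recipient uninjected, with 0 to 31 gamma-delta clonotypes each, although maternal uninjected had the most receptor reads of the 8 libraries.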
